A study of Zea mays with 9 samples.

Results

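The comparison described here sets maize leaves exposed to far-red light reflected by neighbouring weeds against maize leaves exposed to far-red light from diodes, both at the same low ratio of red to far-red light (R:FR). It took 6 of the 9 RNA-seq libraries of the series, 3 from each low R:FR treatment, and all genes with a normalized count of at least 10 in 3 or more of those 6 libraries, which kept 23476 of 30184 genes. The 3 libraries of the weed-free control give the background level of each gene and entered the fit only in the alternative that joins all 9 libraries.

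All plants were seedlings of the maize hybrid CG108 x CG102, grown in chambers for 9 days, and RNA was taken from the second leaf. In biological low R:FR light (weeds), a turf of red fescue, Kentucky bluegrass and perennial ryegrass surrounded each maize plant and lowered R:FR to about 0.6, while a cup kept the roots of the grasses and of maize apart. In artificial low R:FR light (diodes), far-red bulbs and bars brought R:FR to about 0.6 over a surround of baked clay without plants. In the weed-free control R:FR was about 1.5, and the amount of photosynthetic light was similar in all 3 groups. These ratios are those of the sample labels, from which the ratios in the paper differ. The comparison asks whether the source of low R:FR, living grasses or diodes, changes the transcripts of the leaf when the ratio is held equal. Each library is a pool of second leaves from 3 plants, so a p-value measures the spread between such pools.

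Plants sense R:FR through phytochromes, photoreceptors that far-red light returns to their inactive form, and inactive phytochrome frees PIF transcription factors that drive elongation through auxin and gibberellin. Elongating and maturing cells align cellulose along microtubules, which are built from alpha and beta tubulins. Cellulose synthases in plants fall into complexes that make the primary wall of growing cells and others that make the thick secondary wall of xylem and fibres, where laccases then join lignin.

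The total of reads recovered from the normalized counts lay between 23372555 and 40283408 in the weed libraries, between 29642168 and 36995731 in the diode libraries and between 22775151 and 33132805 in the weed-free libraries. Markers of the maize leaf were abundant in every library, but no other tissue was measured to compare them with. The summed normalized count of 5 genes of C4 mesophyll lay between 1959059 and 2305498 with weeds, between 2002068 and 2269558 with diodes and between 1886743 and 2142638 in weed-free leaves. That of 3 bundle sheath genes lay between 376496 and 479875 with weeds, between 293599 and 391292 with diodes and between 318257 and 331436 without weeds. None of these 8 genes passed the test between weeds and diodes. One doubt about the labels bears on every value below. The recovered read totals follow the study's own list of reads per library much more narrowly when the labels of diodes and weed-free are exchanged. Exchanged, each diode and weed-free total lies slightly below the mapped reads listed for that replicate. Each weed total does so as labelled. As labelled, the totals of diodes replicates 2 and 3 and of weed-free replicate 1 exceed the mapped reads listed for them. Within the deposited files 9 of 9 columns of the table match best the expression file of the same label. That match cannot decide the point, because an exchange made before both were labelled would leave it unchanged. The labels are used as deposited, so each statement below about diodes or weed-free leaves depends on them. Were they exchanged, the comparison would be weeds against the weed-free control, and the weed-free values would be those of diodes.

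Weeds replicate 3 stood apart from the other libraries. In it 610 genes lay at least 4-fold below each of the other 5 libraries and 0 lay at least 4-fold above, against 3 to 12 genes below in the other libraries. The mean absolute log2 distance was 0.34 between weeds replicates 1 and 2, but 0.60 and 0.63 between weeds replicate 3 and those replicates. Weeds replicates 1 and 2 lay 0.34 to 0.41 from the diode libraries, and the diode libraries lay 0.30 to 0.34 from each other.

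The departure of weeds replicate 3 followed transcript length. When the tested genes were split into 10 bins of equal size by relative transcript length, its median log2 deviation from the mean of the other libraries was 0.32 in the shortest bin and -0.97 in the longest, while the medians of the other 5 libraries stayed between -0.05 and 0.06. In the longest bin, 385 genes, or 16.4%, were at least 4-fold lower in weeds replicate 3 than in each other library, against 39 genes in the shortest bin. The median log2 difference between weeds and diodes was -0.29 in the longest bin over 6 libraries and 0.09 without weeds replicate 3. The cause of this length trend was not tested. Tests were therefore run over all 6 libraries and without weeds replicate 3, in each case once more with a block for the replicate number, and, as an alternative chosen after seeing the data, over 6 libraries with the length trend removed and the block. Of these settings, those over 6 libraries that kept the length trend passed no gene, with or without the block. A call is therefore always named by its setting. Results without weeds replicate 3 are those without the block unless it is named.

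**Figure D1:**
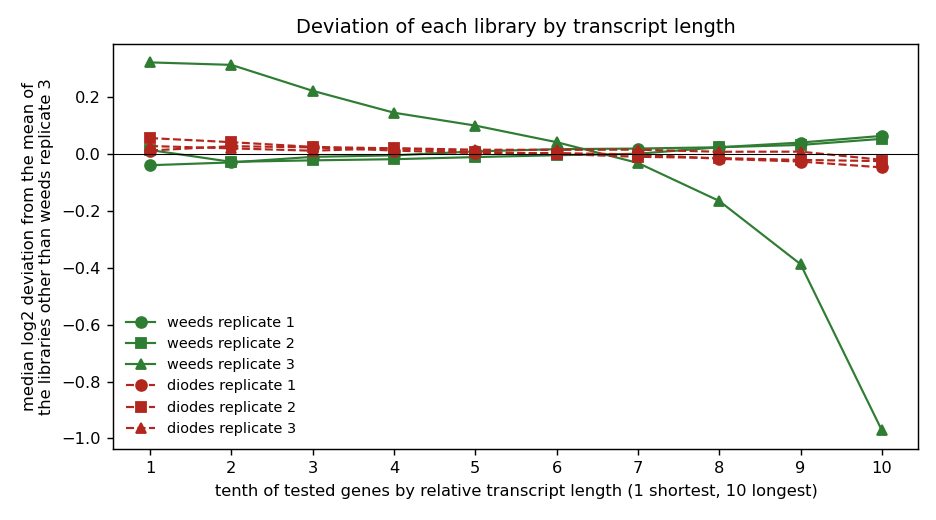
Median log2 deviation of each library from the mean of the libraries other than weeds replicate 3 (y axis) in each of 10 equal bins of the tested genes by relative transcript length (x axis, 1 shortest, 10 longest), with 1 line for each weed library and each diode library. The line of weeds replicate 3 runs from 0.32 to -0.97, and the lines of the other 5 libraries stay between -0.05 and 0.06.

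Single genes show the size of this departure. LOC103626570 had 14012, 12609 and 219.7 normalized counts in weeds replicates 1, 2 and 3, against 12257, 12478 and 14958 with diodes. LOC103650707 had 981, 954 and 20.2 with weeds, against 871, 933 and 958 with diodes. The potassium channel gene kch4 (LOC542053) had 196, 204 and 4.04 with weeds, against 186, 204 and 171 with diodes, and the myosin gene LOC100383772 had 307, 229 and 5.65 with weeds, against 242, 248 and 221 with diodes. In all 4 genes the level in weeds replicates 1 and 2 was close to the diode level, and their log2 differences over 6 libraries, -1.96, -1.77, -1.68 and -1.61, came from weeds replicate 3. kch4 shares 2055 bases with LOC100272783 on the opposite strand and LOC103626570 shares 3097 bases with LOC109939930, so their reads cannot be told apart from those of their neighbours unless strand was used in the counting, which is not given in the sources used here.

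Across all genes, limma at a Benjamini-Hochberg adjusted p under 0.1 called 0 of 23476 genes (0.0%) between weeds and diodes over 6 libraries. The smallest adjusted p was 0.104, and 1962 genes (8.36%) had an unadjusted p under 0.05, of which 1444 (6.15%) were higher and 518 (2.21%) lower with weeds. edgeR on the recovered reads of 5 libraries also called 0 genes, and DESeq2 on the same reads called 262, with 217 higher and 45 lower. Without a test, the 3 weed libraries lay entirely above the 3 diode libraries in 2096 genes (8.93%) and entirely below them in 1605 genes (6.84%), together 15.8% of all genes. The median log2 difference over all genes was -0.04.

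Without weeds replicate 3, limma called 106 genes (0.452%), 67 higher (0.285%) and 39 lower (0.166%) with weeds, and 3258 genes (13.9%) had an unadjusted p under 0.05, 7.62% higher and 6.26% lower. The median log2 difference of the 67 genes was 1.3 and that of the 39 genes was -0.90. Of the 106 genes, 103 had the same direction over 6 libraries and 82 did not overlap between the 3 weed and the 3 diode libraries. In the other 24, weeds replicate 3 lay within the range of the diode libraries or beyond it. Only weeds replicate 3 was new in these counts, because the other libraries had already given the calls. The replicate number was taken to pair these libraries, from small correlations in these same data. As a block over 6 libraries it gave 0 genes. With it as a block 2748 genes passed without weeds replicate 3 (11.7% of all genes), 1594 higher (6.79%) and 1154 lower (4.92%), among them all 106. That fit has 1 residual degree of freedom. Diodes replicate 3 has no partner in it, so each difference rests on replicates 1 and 2 of both groups. This holds for every result below with the block and without weeds replicate 3. With the length trend removed and the block, all 6 libraries gave 293 genes (1.25%), 255 higher (1.09%) and 38 lower (0.162%), of which 68 were also among the 106. With the length trend removed and no block they gave 49 genes, 46 higher and 3 lower, all among the 293. Most calls in this setting thus depend on the block. The 106 calls also rested on weeds replicates 1 and 2: leaving out weeds replicate 1, weeds replicate 2 or diodes replicate 1 as well left 0, 2 or 0 genes, and leaving out diodes replicate 2 left 54. With the TPM values in place of the normalized counts 1 gene passed.

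**Figure D2:**
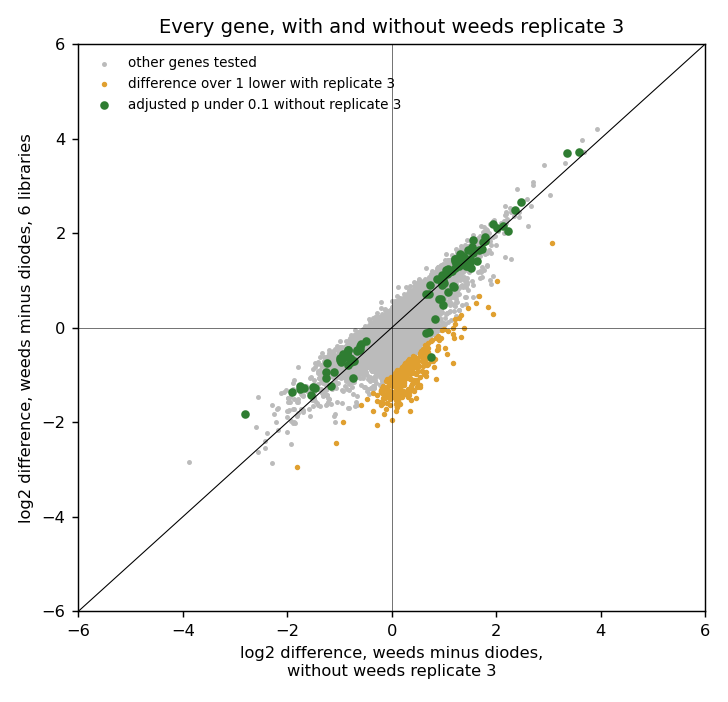
Log2 difference of weeds minus diodes of each of the 23476 tested genes over 6 libraries (y axis) against the same without weeds replicate 3 (x axis). Dark points are the 106 genes past the threshold without weeds replicate 3, and orange points are the 342 genes whose difference was more than 1 lower once weeds replicate 3 was included, all below the diagonal.

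Tubulin genes were mostly higher with weeds than with diodes. Of 14 tubulin genes 13 were tested. Without weeds replicate 3, 4 passed higher and 0 lower (background 0.285% and 0.166%), and 10 passed higher and 0 lower with the block (6.79% and 4.92% of all genes). With the length trend removed and the block over 6 libraries 5 passed higher (1.09% of all genes). Without the block 4 did, of 46 over all genes. The 3 weed libraries lay above the 3 diode libraries in 10 of the 13 (8.93% of all genes) and below them in 1. The median log2 difference of the list was 0.59 over 6 libraries and 0.53 without weeds replicate 3, against -0.04 and 0.00 over all genes. Against weed-free leaves, over 6 libraries each, the list median was 0.08 for weeds and -0.76 for diodes, 2 comparisons that share the weed-free libraries. In a leaf such a difference can come from more RNA per cell or from more cells that express the gene, and these cannot be told apart in bulk tissue here or in any result below. Tubulins are near-identical paralogs, so reads that match several of them may have been split or dropped in the counting.

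The beta tubulin gene tub6 (LOC542239, chromosome 3, bases 192526082 to 192529624 on the RefSeq sequences of the B73 genome used by the deposited files) had 389, 380.0 and 421 normalized counts with weeds, against 159.7, 162 and 197 with diodes, and 429, 463 and 587 in weed-free leaves. Its log2 difference was 1.2 (SE 0.15) over 6 libraries, at an adjusted p of 0.107 in limma, and 1.16 (SE 0.14) without weeds replicate 3, at an adjusted p of 0.0724. The weed and weed-free libraries lay above all diode libraries.

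The same order held in 3 further tubulin genes. The beta tubulin gene tub4 (LOC542417) had 469, 429.9 and 522 with weeds, against 192, 186 and 239.6 with diodes, and 406, 383 and 505 in weed-free leaves. The beta tubulin gene tub5, also named tub8 (LOC542418), had 798, 828 and 1265 with weeds, against 322, 313 and 431 with diodes, and 816, 755 and 1146 in weed-free leaves. The alpha tubulin gene tua5 (LOC542248) had 2636, 2327 and 2423 with weeds, against 1148, 1344 and 1355 with diodes, and 2033, 2166 and 2365 in weed-free leaves. Their log2 differences without weeds replicate 3 were 1.13 (SE 0.15), 1.21 (SE 0.16) and 0.95 (SE 0.11), at limma adjusted p-values of 0.0731, 0.0731 and 0.0724. By that test all 3 were higher with weeds than with diodes. Over 6 libraries they were 1.2, 1.42 and 0.94, at 0.107, 0.167 and 0.107.

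The other tubulins, named after their values were seen, did not pass without weeds replicate 3 unless the block was used. The groups still did not overlap in tub3 (LOC542416), tua4 (LOC100381303), tub7 (LOC542705), tua6 (LOC542582), TUA1 (LOC100037751) and TUA2 (LOC103643947), whose log2 differences over 6 libraries ran downward from 1.06 to 0.51, and these 6 passed without weeds replicate 3 with the block (limma adjusted p of 0.000514 to 0.0416). In tub3 the normalized counts were 2292, 1774 and 2686 with weeds, against 947, 943 and 1349 with diodes. The alpha tubulin gene tua3 (LOC542395) did not share this pattern, with 6859, 6441 and 8398 with weeds against 7176, 7209.7 and 6340.3 with diodes. Nor did the gamma tubulin gene LOC542436, whose product nucleates microtubules instead of building them, with 268, 262 and 249.6 with weeds against 278, 280.1 and 323 with diodes.

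Most cellulose synthase genes were also higher with weeds. All 13 were tested, of which 3 passed higher and 0 lower without weeds replicate 3 (0.285% and 0.166% of all genes), 12 passed higher with the block (6.79%), and 7 passed higher with the length trend removed and the block over 6 libraries (1.09%). With the length trend removed and no block 0 passed, so those 7 depend on the block. In 8 the groups did not overlap, all with weeds above diodes (8.93%). The list median was 0.66 over 6 libraries and 0.64 without weeds replicate 3. Against weed-free leaves the list median was 0.11 for weeds and -0.76 for diodes.

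The leading members were the genes of the secondary wall type. The cellulose synthase gene cesa10 (LOC542685, chromosome 1, bases 239980574 to 239984676) had 488, 525 and 730.3 normalized counts with weeds, against 172, 144 and 211 with diodes, and 348, 348 and 489 in weed-free leaves. Its log2 difference was 1.72 (SE 0.22) over 6 libraries, at a limma adjusted p of 0.107, and 1.54 (SE 0.18) without weeds replicate 3, at 0.0724. cesa11 (LOC542139) had 582, 607 and 675 with weeds, against 229, 179 and 282 with diodes, and 442, 586 and 725 in weed-free leaves. CesA13 (LOC103647435) had 356, 396 and 471 with weeds, against 134, 122 and 188 with diodes, and 253, 273 and 369.5 in weed-free leaves. Without weeds replicate 3 both were higher with weeds than with diodes, by 1.39 (SE 0.19) and 1.36 (SE 0.20) on the log2 scale, at limma adjusted p-values of 0.0815 and 0.0902. Over 6 libraries the differences were 1.45 and 1.47, at 0.107 and 0.132. CesA12 (LOC542514) had 182, 138 and 212 with weeds, against 80.8, 45.9 and 69.7 with diodes, and did not pass without weeds replicate 3 (limma adjusted p = 0.149), though it did with the length trend removed and the block (0.0766).

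The differences of the other cellulose synthases, named after their values were seen, were smaller. cesa2 (LOC542564), cesa5 (LOC541803), cesa8 (LOC541806) and CesA-9 (LOC541807) had log2 differences of 0.66, 0.54, 0.69 and 0.67 over 6 libraries and did not pass without weeds replicate 3 unless the block was used. cesa8 had 1158, 1082 and 1156 with weeds, against 608, 599 and 951 with diodes, and passed with the length trend removed and the block (limma adjusted p = 0.0588). The exception in the family was cesa3 (LOC542489), which had 2086, 1755 and 1349.9 with weeds, against 1895, 1776 and 1964 with diodes, so that its log2 difference was -0.14 over 6 libraries and 0.03 without weeds replicate 3.

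**Figure D3:**
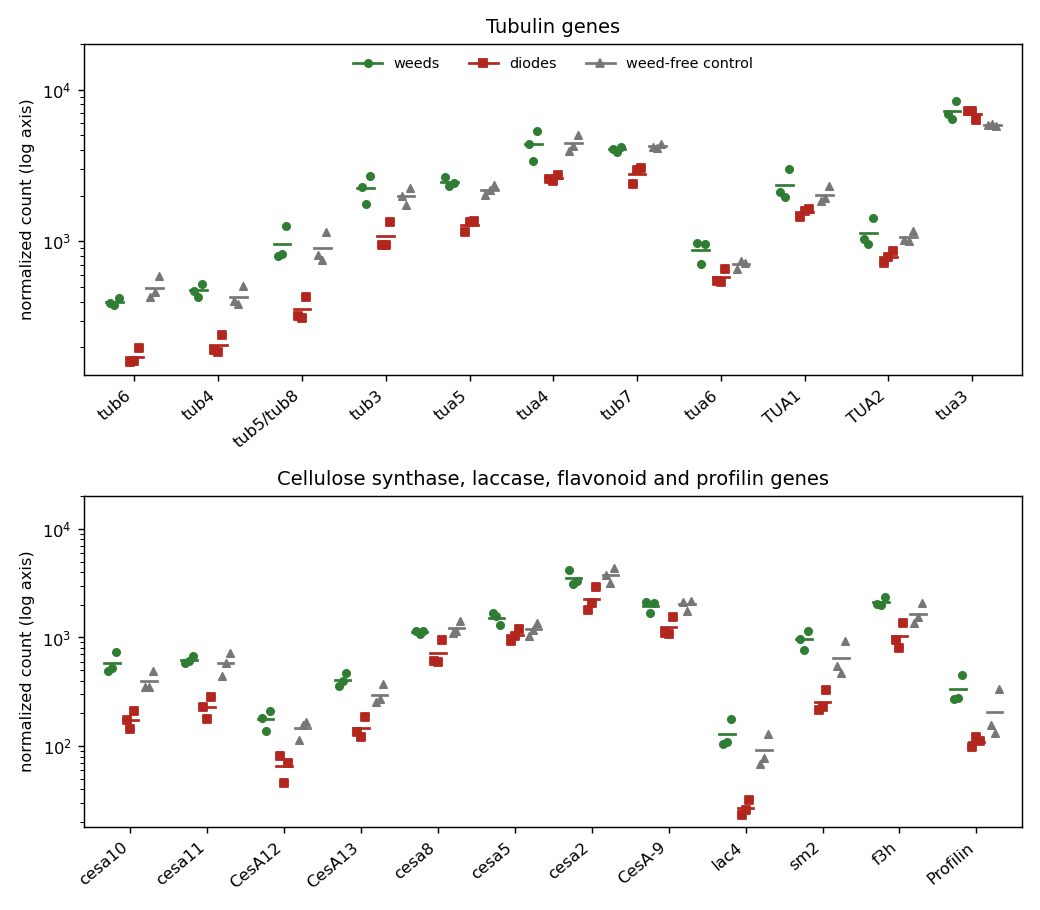
Normalized counts on a log axis of 11 tubulin genes (upper panel) and of 12 cellulose synthase, laccase, flavonoid and profilin genes (lower panel), with 1 point per library and a bar at the mean of each group, weeds left of diodes and weed-free leaves last. In tub6 the weed libraries sit between 380.0 and 421 and the diode libraries between 159.7 and 197, and in tua3 the weed libraries sit between 6441 and 8398 and overlap the diode libraries.

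Genes of lignin and other wall polymers had smaller medians, but a laccase gene had a large difference. Of 19 phenylpropanoid and lignin genes tested, 1 passed higher and 0 lower without weeds replicate 3 (0.285% and 0.166% of all genes), 7 higher and 2 lower with the block (6.79% and 4.92%), and 3 higher with the length trend removed and the block (1.09%). With the length trend removed and no block 1 passed higher, of 46 over all genes. The list median was 0.35 over 6 libraries and 0.09 without weeds replicate 3. The laccase gene lac4 (LOC732787, chromosome 3, bases 185772524 to 185775771), whose enzyme family oxidizes lignin precursors in the wall, had 104, 109 and 177 normalized counts with weeds, against 23.4, 25.9 and 32.1 with diodes, and 68.9, 77.9 and 129.8 in weed-free leaves. It was higher with weeds than with diodes by 1.94 (SE 0.24) on the log2 scale without weeds replicate 3, at a limma adjusted p of 0.0724. Its difference over 6 libraries was 2.19, at 0.107. LAC1 (LOC606456) had 3726, 4701 and 3797 with weeds, against 1679, 2661 and 1962 with diodes, without overlap, and did not pass without weeds replicate 3 (limma adjusted p = 0.137). PAL1 (LOC542258), for the enzyme that opens the phenylpropanoid pathway, had 2404, 1909.6 and 3088 with weeds, against 1251, 905 and 1493 with diodes, also without overlap (0.178). Both passed with the length trend removed and the block over 6 libraries, at 0.0484 and 0.043.

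Of 18 cobra-like, expansin and xyloglucan genes tested, 0 passed without weeds replicate 3 in limma (5 higher and 3 lower at an unadjusted p under 0.05, against 7.62% and 6.26% of all genes). With the block 6 passed higher and 4 lower (6.79% and 4.92% of all genes). Over 6 libraries with the length trend removed, 0 passed without the block and 2 passed higher with it (1.09%). One was xth1 (LOC542059), for an enzyme that cuts and rejoins xyloglucan, with 1675, 1113 and 1773 with weeds, against 487, 601 and 833 with diodes. The other was the glucanase gene exg1 (LOC100191390), with 6692, 5945 and 8023 with weeds, against 3196, 3687 and 5481 with diodes. The groups did not overlap in these genes or in the brittle stalk gene bk2 (LOC778435, named after its values were seen), a maize gene needed for secondary wall cellulose, with 427, 337 and 660.0 with weeds, against 336, 275 and 336 with diodes.

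Flavonoid genes had positive log2 differences in 14 of 14 members tested over 6 libraries and in 12 without weeds replicate 3. Of the 14, 1 passed higher and 0 lower without weeds replicate 3 (0.285% and 0.166% of all genes), and 5 passed higher with the block (6.79%). Over 6 libraries with the length trend removed, 3 passed higher with the block (1.09%). Without it 1 did, of 46 over all genes. The median log2 difference was 0.32 over 6 libraries and 0.25 without weeds replicate 3. sm2, which adds rhamnose in the synthesis of the maize flavone maysin, had 973, 770.5 and 1148 normalized counts with weeds, against 213, 228 and 328 with diodes, and 545, 473 and 926 in weed-free leaves. Its log2 difference was 1.91 (SE 0.22) over 6 libraries and 1.78 (SE 0.21) without weeds replicate 3, at limma adjusted p-values of 0.107 and 0.0724. The flavanone hydroxylase gene f3h (LOC542712) had 2030.2, 1981 and 2359 with weeds, against 943, 807 and 1347 with diodes. The chalcone synthase gene c2 (LOC100274415), for the first enzyme of the pathway, had 4469, 3509 and 4787 with weeds, against 2506, 1831 and 3046 with diodes. f3h and c2 did not overlap between the groups and passed with the length trend removed and the block (limma adjusted p = 0.0435 and 0.0588). The anthocyanidin synthase gene a2 (LOC100127010, named after its values were seen) showed another pattern, with 225, 218 and 235 with weeds and 202, 96.7 and 253 with diodes, against 1.79, 1.28 and 28.4 in weed-free leaves, so that both low R:FR treatments lay above the control and overlapped each other.

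Single genes of the cytoskeleton and of auxin response also passed. The profilin gene LOC100283110, for a protein that binds actin monomers, had 272, 276 and 450.0 normalized counts with weeds, against 99.3, 121 and 111 with diodes, and 156, 132 and 333 in weed-free leaves. It was higher with weeds than with diodes by 1.31 (SE 0.15) on the log2 scale without weeds replicate 3, at a limma adjusted p of 0.065. Its difference over 6 libraries was 1.55, at 0.149. It was the 1 call among 19 actin cytoskeleton genes tested (0.285% of all genes passed higher), of which 3 passed higher and 2 lower with the block (6.79% and 4.92%). The list median was -0.16 over 6 libraries and -0.03 without weeds replicate 3. The Aux/IAA gene AUX14 (LOC100283579), of a family that represses auxin response, had 228, 219 and 309 with weeds, against 121, 115 and 130.1 with diodes, and 262, 282 and 438 in weed-free leaves. It passed without weeds replicate 3, at a log2 difference of 0.87 (SE 0.14) and a limma adjusted p of 0.0968. It was the 1 call among 12 auxin response genes without the block (0.285% of all genes passed higher), and with the block 6 passed higher and 0 lower (6.79% and 4.92% of all genes). In 5 of the 12 the weed libraries lay above the diode libraries without overlap (8.93%). The antisense gene LOC103625891 covers AUX14 over its whole length of 2620 bases, so their reads cannot be told apart without strand. TAZ1 (LOC100191305) had 621, 495 and 425 with weeds, against 181, 215 and 222 with diodes, and 473, 565 and 554 in weed-free leaves. It was higher with weeds than with diodes by 1.43 (SE 0.15) on the log2 scale without weeds replicate 3, at a limma adjusted p of 0.0602. Its difference over 6 libraries was 1.3, at 0.132.

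Genes of phytochrome signalling gave no call without the block. Of 10 genes for phytochromes, their chromophore, PIF factors and phototropin, 0 passed in limma without weeds replicate 3. At an unadjusted p under 0.05, 1 was higher and 1 lower (7.62% and 6.26% of all genes). With the block 2 passed lower (4.92% of all genes), PIF5 (LOC100281419) and the haem oxygenase gene HO1 (LOC100192807), and with the length trend removed and the block 0 passed. The median log2 difference was -0.05 over 6 libraries and -0.01 without weeds replicate 3. PHYB (LOC100383702, named after its values were seen), for the main sensor of R:FR, had 1125, 1002 and 768 normalized counts with weeds, against 1126, 871 and 912 with diodes, and 779.8, 676 and 721 in weed-free leaves. The blue light receptor gene nph1 (LOC541663), also named phot1, had 9254, 9394 and 4487 with weeds, against 10005, 10396 and 7794 with diodes. Weeds and diodes overlapped in PHYB, and in nph1 weeds replicate 3 was the low library. Of 6 gibberellin genes tested, 1 passed higher with the block (6.79% of all genes) and 0 without it (0.285%). This was d3 (LOC542580), for an oxidase of gibberellin synthesis, which had 405, 296 and 487 with weeds, against 214, 182 and 217 with diodes. It did not pass without weeds replicate 3 (limma adjusted p = 0.159) and passed over 6 libraries with the length trend removed and the block (0.088). Dwarf1 had 29.1, 53.0 and 73.5 with weeds, against 25.3, 28.9 and 55.1 with diodes, and overlapped, as did D8 (LOC100191728).

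Genes that assimilate nitrogen were compared member by member, because the study asked what low R:FR does to nitrogen in the leaf. The lists did not cover the whole pathway. The nitrate reduction list held 1 gene, for nitrite reductase, and the glutamate synthase list held 1, for the ferredoxin-dependent form. Genes for nitrate reductase and NADH-dependent glutamate synthase were not in them. Of 4 asparagine and glutamate genes tested, 1 passed higher and 0 lower without weeds replicate 3 (0.285% and 0.166% of all genes), and 2 passed higher and 1 lower with the block (6.79% and 4.92%). Of 6 glutamine synthetase genes 0 passed in limma (2 higher at an unadjusted p under 0.05, against 7.62% of all genes), and 2 passed higher with the block (6.79%). The asparagine synthetase gene asn3 (LOC100192350, chromosome 1, bases 44909165 to 44912606) had 120.1, 111 and 148 normalized counts with weeds, against 37.0, 49.8 and 45.9 with diodes, and 17.9, 40.9 and 64.4 in weed-free leaves. It was higher with weeds than with diodes by 1.37 (SE 0.21) on the log2 scale without weeds replicate 3, at a limma adjusted p of 0.0968. Unlike the tubulins, its weed libraries lay above the weed-free libraries as well. The other asparagine synthetase gene tested, asn1 (LOC542435), had 2597, 2113 and 2304 with weeds, against 1777, 1778 and 2021 with diodes, and 2460.2, 2212 and 2561 in weed-free leaves, without overlap between weeds and diodes (log2 difference 0.33, SE 0.13, limma adjusted p = 0.541 over 6 libraries and 0.291 without weeds replicate 3, where the block gave 0.0345).

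The nitrite reductase gene NIR (LOC542264) had 16328, 13834 and 14892 with weeds, against 10993, 11995 and 13133 with diodes, a log2 difference of 0.32 (SE 0.13) over 6 libraries. The plastid glutamine synthetase gene gln1, also named gs2 (LOC542746), had 43135, 38269.6 and 44591 with weeds, against 29539, 32891 and 31700.1 with diodes, a log2 difference of 0.42 (SE 0.12). In both the groups did not overlap, but neither passed over 6 libraries (limma adjusted p = 0.553 and 0.383) or without weeds replicate 3 (0.315 and 0.247). With the block both passed without weeds replicate 3 (0.0559 and 0.0826). gln3 (LOC542215), for a cytosolic form, had 689, 775 and 1057 with weeds, against 292, 573 and 362 with diodes, and 311, 289 and 380.0 in weed-free leaves, the largest log2 difference of the 6 glutamine synthetase genes over 6 libraries at 1.07 (SE 0.28, limma adjusted p = 0.324, and 0.0153 without weeds replicate 3 with the block).

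The remaining genes tested in these nitrogen lists overlapped between weeds and diodes. gln2 (LOC542400), gln4 (LOC542214), gln5 (LOC542401) and GLN6 (LOC542520) had log2 differences of 0.13, -0.02, -0.06 and 0.34 over 6 libraries. The ferredoxin-dependent glutamate synthase gene fgs1 (LOC542710), which works with gs2 on ammonium from photorespiration, had 57947, 56883 and 26468 with weeds, against 50499, 51076 and 49714 with diodes, with the low value in weeds replicate 3. The glutamate dehydrogenase gene gdh1 (LOC542220) had 1234, 1201 and 1913 with weeds, against 1708, 1542 and 1611 with diodes, and the glutamate decarboxylase gene GAD (LOC100284394) had 2688, 1840.0 and 2660.2 with weeds, against 2445, 1835 and 2309 with diodes. None of these 7 genes passed without weeds replicate 3 in limma, and with the block gdh1 passed as lower (adjusted p = 0.0198). Other transport genes of the leaf that were higher with weeds without overlap included the nitrate transporter gene NRT1.2 (LOC778429), with 406, 359 and 502 with weeds against 215, 218 and 277 with diodes, and the vacuolar aquaporin gene tip1 (LOC541675), with 7087, 5800.4 and 10446 with weeds against 3264, 3944 and 4819 with diodes. Both passed with the length trend removed and the block over 6 libraries, at limma adjusted p-values of 0.0766 and 0.0856.

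Transcripts lower with weeds were fewer among named genes and included precursors of microRNAs. Of 11 microRNA precursor genes tested, 1 passed lower and 0 higher without weeds replicate 3 (0.166% and 0.285% of all genes), and 2 passed lower with the block (4.92%). In 3 the weed libraries lay below the diode libraries and in 3 above them (6.84% and 8.93% of all genes). The precursor MIR408a (bases 58672028 to 58672218) lies within LOC109945000 (bases 58671499 to 58672283) on the same strand of chromosome 3, so that their reads are shared or cannot be told apart, and both were much lower in weeds replicates 1 and 2 only. MIR408a had 44.2, 49.8 and 146 normalized counts with weeds, against 191, 173 and 174 with diodes, and 265, 236 and 128 in weed-free leaves. LOC109945000 had 454, 416 and 1265 with weeds, against 1489, 1524 and 1407 with diodes, and 2209.5, 1873 and 896 in weed-free leaves. Without weeds replicate 3 they were lower with weeds than with diodes by 1.91 (SE 0.16) and 1.76 (SE 0.09) on the log2 scale, at limma adjusted p-values of 0.0435 and 0.0082. Over 6 libraries they were lower by 1.37 (SE 0.43) and 1.24 (SE 0.40), at 0.423 and 0.433. In both genes replicate 3 was the highest library of the weed group and the lowest of the weed-free group.

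MIR528b had 43.0, 42.6 and 42.0 with weeds, against 80.8, 85.7 and 87.3 with diodes, and 91.3, 52.4 and 37.0 in weed-free leaves. Its log2 difference was -0.98 (SE 0.18) over 6 libraries and -0.97 (SE 0.18) without weeds replicate 3, at limma adjusted p-values of 0.198 and 0.135, and 0.0416 without weeds replicate 3 with the block. MIR397b was close to the minimum for testing, with 6.32, 7.27 and 3.23 with weeds, against 15.6, 19.9 and 22.2 with diodes. In plants miR397, miR408 and, in maize and its relatives, miR528 are known to act on transcripts of laccases and other copper proteins. The counts here are of precursor transcripts in libraries of messenger RNA, not of mature microRNAs.

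Named genes of transport and defence were among the other calls with lower levels. HKT1 (LOC100382359), for a sodium transporter, had 198, 212 and 364 normalized counts with weeds, against 407, 339 and 379 with diodes, and 226, 226 and 199.9 in weed-free leaves. MSRA2 (LOC100283982), for an enzyme that repairs oxidized methionine, had 686, 709 and 946 with weeds, against 1017, 1042 and 1131 with diodes, and the cystatin gene cc4 (LOC732753), for an inhibitor of cysteine proteases, had 1641, 1498 and 2581 with weeds, against 2372, 2471 and 2214 with diodes. The rule for named genes did not take these 3 genes. Without weeds replicate 3 they were lower with weeds than with diodes by 0.86, 0.61 and 0.58 on the log2 scale, at limma adjusted p-values of 0.0902, 0.0968 and 0.0993. In HKT1 and cc4 weeds replicate 3 lay within or above the diode libraries, so these calls rest on weeds replicates 1 and 2.

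Pathogenesis-related and protease inhibitor genes had a median log2 difference of -0.50 over 6 libraries and -0.77 without weeds replicate 3, but of 21 tested 1 passed, cc4, without weeds replicate 3 (0.166% of all genes passed lower), and 8 passed lower with the block (4.92%). PR-1 (LOC542352), a marker of pathogen response, had 166, 83.1 and 210.0 with weeds, against 346, 204 and 625 with diodes, and 69.8, 74.1 and 64.4 in weed-free leaves, with overlap between weeds and diodes. It passed as lower over 6 libraries with the length trend removed and the block, at a log2 difference of -1.35 and a limma adjusted p of 0.0556, and each weed library lay below the diode library of the same number. bx1 (LOC542117), for the first step of benzoxazinoid synthesis, had 1241, 1064 and 1178 with weeds, against 3738, 1665 and 1749 with diodes, without overlap, and the high library was diodes replicate 1.

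Further genes were lower in all 3 weed libraries. TPS2 (LOC732758) had 54.4, 91.4 and 59.8 with weeds, against 207, 230.3 and 163 with diodes, and TPS3 (LOC732759) had 70.8, 96.6 and 71.9 with weeds, against 186, 252 and 168 with diodes. Their log2 differences over 6 libraries were -1.56 (SE 0.25) and -1.32 (SE 0.22), at limma adjusted p-values of 0.169 and 0.176, and both passed with the length trend removed and the block, at 0.043 and 0.0429. They lie near each other on chromosome 5 under names of one family, and reads shared between them may have been split. dxs2 (LOC606430), for the entry step of plastid isoprenoid synthesis, had 31.6, 28.0 and 18.6 with weeds, against 64.3, 72.8 and 113 with diodes, and PPCK1 (LOC606483), for the kinase that activates phosphoenolpyruvate carboxylase, had 140.3, 103 and 166 with weeds, against 272, 186 and 495 with diodes. The phosphate transporter gene pht3 had 488, 457 and 565 with weeds, against 719.6, 664 and 763 with diodes, and 375, 279.8 and 346 in weed-free leaves. In these 3 genes the groups did not overlap and limma without a block did not pass them over 6 libraries or without weeds replicate 3. PPCK1 passed over 6 libraries with the length trend removed and the block (limma adjusted p = 0.0886), and all 3 passed without weeds replicate 3 with the block.

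**Figure D4:**
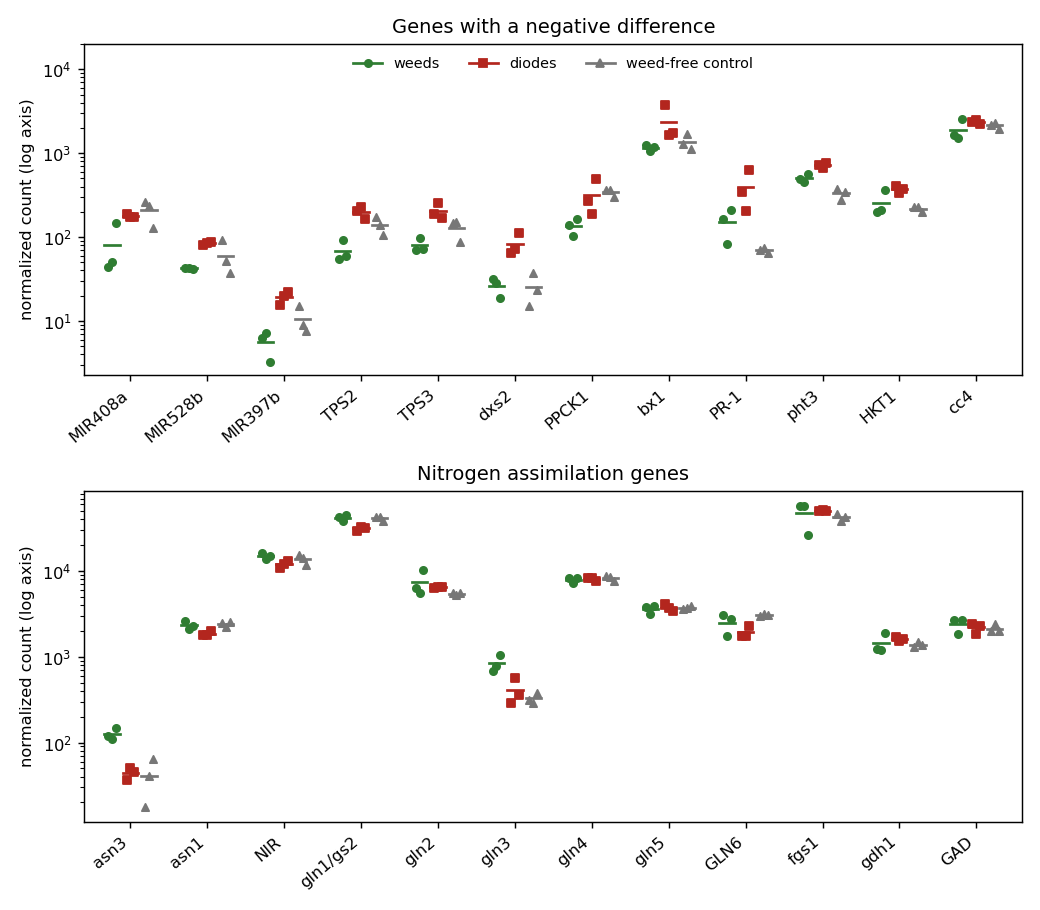
Normalized counts on a log axis of 12 genes lower with weeds (upper panel) and of 12 nitrogen assimilation genes (lower panel), with 1 point per library and a bar at the mean of each group, weeds left of diodes and weed-free leaves last. In MIR408a weeds replicate 3, at 146, sits near the diode libraries at 173 to 191, and in asn3 the weed libraries at 111 to 148 sit above the other groups.

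Surface wax and other named genes with large differences varied more between replicates. CER1 (LOC100273712), which in Arabidopsis acts in the synthesis of wax alkanes, had 204, 153 and 238 normalized counts with weeds, against 29.2, 36.9 and 100.3 with diodes, and gl4a (LOC100191738), a glossy gene of wax chain elongation, had 1468, 1363 and 1936 with weeds, against 390.4, 443 and 899 with diodes. gar2 (LOC541620) had the widest spread, with 1905, 2986 and 4606 with weeds, against 56.5, 260.2 and 462 with diodes, and 876, 723 and 2927 in weed-free leaves. In all 3 genes replicate 3 was the highest library with weeds and with diodes, and the groups did not overlap. They did not pass without weeds replicate 3 (limma adjusted p = 0.197, 0.164 and 0.149) and passed over 6 libraries with the length trend removed and the block (0.0448, 0.0416 and 0.0388). The lipoxygenase genes lox1 and lox6, of the family that oxidizes fatty acids on the way to jasmonates and other oxylipins, went opposite ways. lox1 had 98.6, 143 and 135 with weeds, against 59.4, 37.9 and 25.3 with diodes, and lox6 had 10187, 11642 and 10402 with weeds, against 15723, 15523 and 15586 with diodes. Of 44 jasmonate genes tested, 0 passed without weeds replicate 3 in limma. At an unadjusted p under 0.05, 3 were higher and 3 lower, near the 7.62% and 6.26% of all genes. With the block 2 passed higher and 7 lower (6.79% and 4.92% of all genes).

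Many calls higher with weeds were genes that carry only a locus identifier, of which 5 are given here. LOC100281790 had 133, 136 and 273 normalized counts with weeds, against 9.74, 9.97 and 18.4 with diodes, and 42.1, 43.4 and 259 in weed-free leaves, a log2 difference of 3.36 (SE 0.34) without weeds replicate 3 at a limma adjusted p of 0.0477. LOC100273254, which the rule for named genes did not take, had 53.1, 106 and 102 with weeds, against 2.92, 5.98 and 8.42 with diodes. In weed-free leaves it had 25.1, 31.9 and 255, so weed-free replicate 3 lay above every weed library. LOC103650186 had 192, 194 and 275 with weeds, against 35.1, 52.8 and 20.7 with diodes, and 8.95, 8.94 and 24.6 in weed-free leaves. The diode and weed-free levels of LOC103650186 were both low, and all 3 weed libraries lay above them. LOC100383449 had 219, 186 and 142 with weeds, against 40.9, 49.8 and 37.5 with diodes, and 64.5, 61.3 and 111 in weed-free leaves. LOC100275035 had 2024, 1889 and 1744 with weeds, against 497, 708 and 583 with diodes, and 562, 947 and 948 in weed-free leaves. Without weeds replicate 3 these last 4 genes were higher with weeds than with diodes by 3.58, 2.48, 2.22 and 1.73 on the log2 scale, at limma adjusted p-values of 0.0902, 0.0922, 0.0435 and 0.0435.

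LOC100501446 and LOC100277357 on chromosome 7 share 519 bases on opposite strands, so they count as 1 signal unless strand was used. LOC100501446 had 296, 367 and 377 with weeds, against 122, 71.8 and 107 with diodes, and LOC100277357 had 350.2, 432 and 447 with weeds, against 138, 79.8 and 130.1 with diodes. Among the genes called lower with weeds than with diodes without weeds replicate 3, LOC118476385 had 370.4, 422 and 349.8 with weeds, against 841, 978 and 861 with diodes. LOC100284641 had 341, 419.5 and 555 with weeds, against 1042, 984 and 1128 with diodes. LOC100284002 had 60.7, 51.9 and 71.9 with weeds, against 167, 159.5 and 171 with diodes. The 3 weed libraries lay below the diode libraries in each of these genes, and the log2 differences without weeds replicate 3 were -1.17, -1.47 and -1.55, at limma adjusted p-values of 0.0477, 0.0435 and 0.0521.

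A few calls without weeds replicate 3 went the other way in that library. LOC100279166, chosen after its values were seen, had 1721, 1838 and 103 with weeds, against 1077, 1117 and 982 with diodes, and LOC100383780, likewise chosen, had 1222, 1259 and 235 with weeds, against 743, 791 and 735 with diodes. Both passed as higher without weeds replicate 3 (log2 differences 0.75 and 0.71, limma adjusted p = 0.0731 each), and over 6 libraries their log2 differences were -0.62 and -0.08. Weeds replicate 3 was the lowest of the 6 libraries in both.

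Lists of photosynthesis and growth gave no call without the block. In limma without weeds replicate 3, 0 members passed among 9 light-harvesting antenna genes, 8 photosystem genes, 8 C4 cycle genes, 37 cytosolic ribosomal protein genes, 15 histone and chromatin assembly genes and 13 cell cycle genes. At an unadjusted p under 0.05 the counts higher and lower were 0 and 0 for antenna genes, 1 and 0 for photosystem genes, 0 and 2 for C4 genes, 0 and 1 for ribosomal genes, 1 and 2 for histones, and 0 and 0 for the cell cycle, where all genes gave 7.62% higher and 6.26% lower. With the block, where 6.79% of all genes passed higher and 4.92% lower, 3 C4 genes passed lower, all for kinases of phosphoenolpyruvate carboxylase (PPCK1, PPCK2 and PPCK4). In that fit 1 photosystem gene passed higher and 1 histone gene lower, and no antenna, ribosomal or cell cycle gene passed. Ribosomal protein genes had positive log2 differences in 33 of 37 over 6 libraries and in 24 without weeds replicate 3, with medians of 0.24 and 0.07. Of all 23476 genes, 10370 and 11821 were positive. These ribosomal genes are short (median log2 relative length -1.06), and in the shortest bin weeds replicate 3 had a median deviation of 0.32. A part of the length trend in the 33 was not tested. Of 8 Calvin cycle and rubisco genes 0 passed without weeds replicate 3. At an unadjusted p under 0.05, 1 was higher and 1 lower (7.62% and 6.26% of all genes). With the block 1 passed higher and 1 lower (6.79% and 4.92%).

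**Figure D5:**
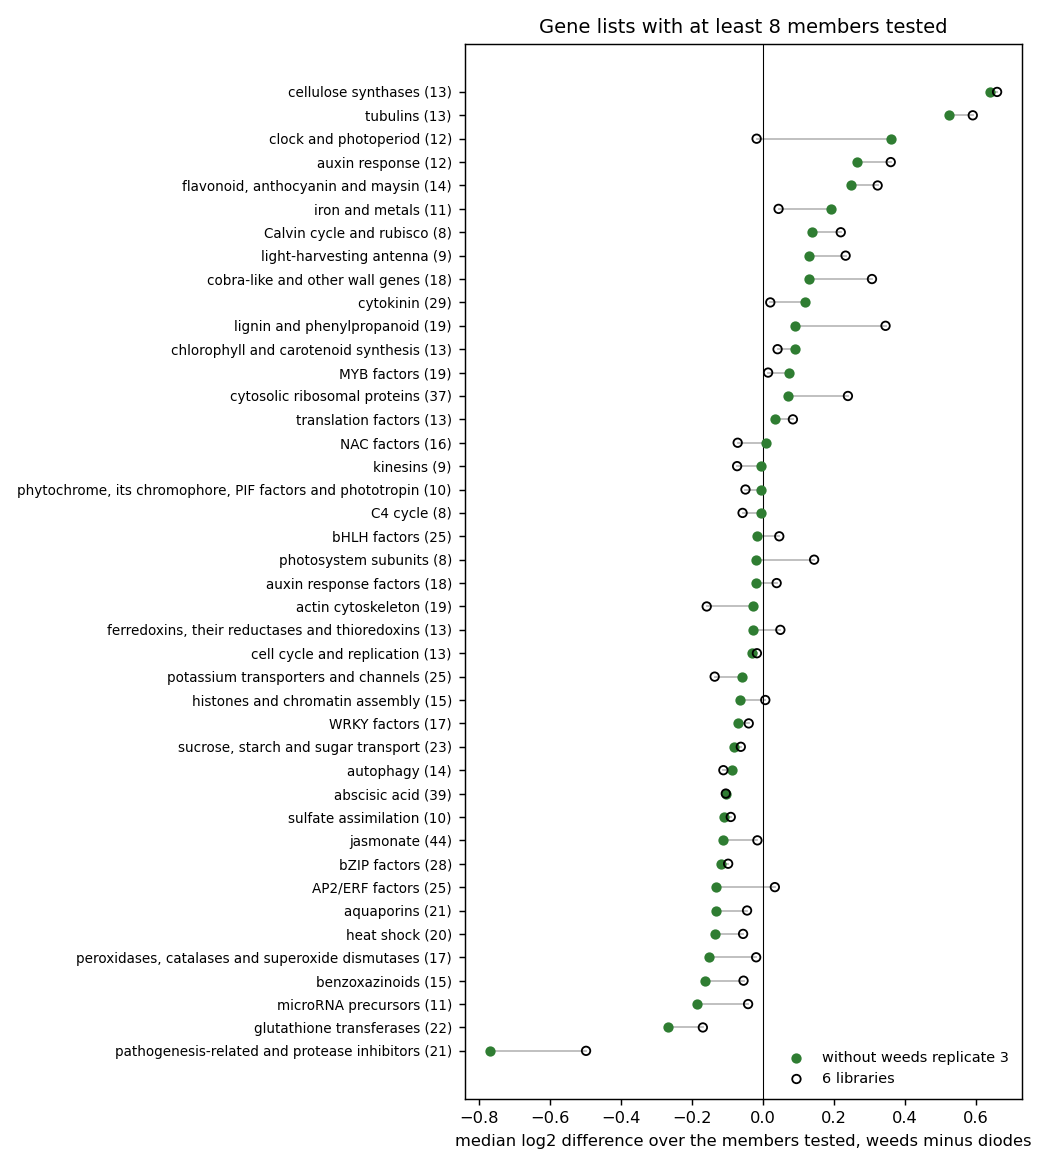
Median log2 difference of weeds minus diodes over the tested members of each gene list with at least 8 members tested (x axis), 1 row per list with the number tested in brackets, filled points without weeds replicate 3 and open points over 6 libraries. Tubulins (0.53 without weeds replicate 3, 0.59 over 6 libraries) and cellulose synthases (0.64 and 0.66) sit farthest to the right, and the pathogenesis-related list (-0.77 and -0.50) sits farthest to the left.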

How the data were processed

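Second leaves of maize were sequenced in 9 libraries (Illumina TruSeq kit). The submitters' notes name Bowtie2 2.4.3, HTSeq 0.13.5 and DESeq2 1.30.1, whereas the paper's methods name Fastp, STAR and featureCounts. The authors deposited a signal table, normalized counts that DESeq2 scaled by library, used here, and TPM values per library, used as an alternative. Their comparison tables of fold changes and p-values were not used, and 0 value columns were left unmapped.

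On the scale log2(value + 1), for genes with at least 10 in 3 or more of the 6 libraries, limma 3.58.1 was fitted (variance trend, two-sided, Benjamini-Hochberg over all genes, threshold 0.1) in R 4.3.3, so fold changes of low genes are understated. Whole reads were recovered with a tolerance of 0.01 for edgeR 4.0.16 and DESeq2 1.42.0, without diodes replicate 2, whose step is too near 1. Replicates with the same number correlated at 0.12, 0.23 and 0.13 after group means were removed. These small correlations are each over 0.1, the minimum chosen for pairing, so the numbers were taken to pair libraries. The labels do not state that libraries of the same number were grown together. The pairing therefore rests on the data that the block was then used to test. Relative length is recovered reads over TPM, and its trend was removed by a loess curve (span 0.3). Python 3.11.15 and pandas 2.3.3 prepared the tables. Alternatives were other pseudocounts, no filter, TMM, TPM values, all 9 libraries in 1 fit, the block, leaving out each library, DESeq2 and edgeR, with the length correction added after seeing the data. The scripts were tested on simulated data.

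Named genes were the 15 largest non-overlapping differences per direction with a name and a mean of at least 50, the 12 largest calls per direction without weeds replicate 3, up to 4 per list and direction, the nitrogen genes and the 8 genes with the largest gap in weeds replicate 3. Other names are marked. Members of the comparison and all lists were chosen with earlier results of these data known. One gene is not reported here.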

Additional observations from a re-analysis of the deposited data

How the results depend on the processing

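Without a replicate block, limma over 6 libraries called 0 genes, and 0 with the block (2331 at an unadjusted p under 0.05), with pseudocount 0.5, no filter, TMM or TPM values. It called 24 genes with pseudocount 5, 263 with all 9 libraries in 1 fit, 49 with the length trend removed and 293 with the length trend removed and the block. DESeq2 on recovered reads called 262 and edgeR 0 (1624 at an unadjusted p under 0.05). Leaving out 1 library gave 0 to 106 calls, and 106 only without weeds replicate 3. Without weeds replicate 3, where limma called 106, the counts were 1 with TPM values, 968 with all 9 libraries, 2748 with the replicate block, 2276 with the length trend removed and the block, 791 with DESeq2, 62 with edgeR, 12 at an adjusted p under 0.05, and 0 to 96 when 1 more library was left out. Where weeds replicate 1 or 2 was the further library, 1 weed library remained, assumed to vary like the diode libraries.

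Of 92 genes named and tested, 75 kept the sign of the log2 difference in each setting. Leaving out 1 library at a time gave log2 differences from -0.053 to 0.14 for tua3 (LOC542395), whose TPM value was -0.021, and from -0.29 to 0.028 for cesa3 (LOC542489), which was 0.069 with the length trend removed, with or without the block. The ranges were -0.13 to 0.31 for gln2 (LOC542400), -0.063 to 0.041 for gln4 (LOC542214), -0.12 to 0.038 for gln5 (LOC542401), -0.38 to 0.19 for fgs1 (LOC542710) and -0.0094 to 0.29 for GAD (LOC100284394). With the length trend removed fgs1 was 0.22. Ranges were -2.58 to 0.10 for kch4 (LOC542053), -2.60 to 0.16 for LOC100383772, -2.98 to 0.013 for LOC103626570, -2.69 to 0.072 for LOC103650707, -1.32 to 0.75 for LOC100279166 and -0.49 to 0.71 for LOC100383780, which was 0.10 with the length trend removed. The ranges were -0.34 to 0.041 for PIF5 (LOC100281419), -0.21 to 0.013 for HO1 (LOC100192807) and -0.79 to 0.12 for PPCK2 (LOC606427). PHYB (LOC100383702) ranged from -0.13 to 0.14 and was 0.24 with the length trend removed. Of 51 lists with at least 5 members tested, the median moved by more than the spread between replicates in 9 with TPM values, in 8 without weeds replicate 3, in 4 with the length trend removed and in 1 to 4 without another library. Depth limits genes near a normalized count of 10, such as MIR397b.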
